A study of Mus musculus with 59 samples.

Results

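The genes described here are tied to the choice between carbohydrate and fat as mitochondrial fuel: the pyruvate dehydrogenase kinases *Pdk1*, *Pdk2* and *Pdk4*, the mitochondrial carrier *Ucp2*, the arrestin-family protein gene *Txnip*, the isocitrate dehydrogenase *Idh2* and the pantetheinase *Vnn1*. Around these 7 genes the binding of BCL6, PPARα and PPARδ was read from 7 lists of ChIP-seq peaks. A peak was kept when its centre lay in a member gene, or when the nearest start of a protein-coding transcript (TSS, transcription start site), within 100 kb, belonged to a member. Peaks of different lists whose centres lay less than 200 bp apart were counted as 1 region. By this rule 105 peaks in 30 regions belonged to the 7 genes, out of 40478 regions in all lists.

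Livers came from male mice. For 6 lists the mice were wild-type C57BL/6, either fed ad libitum or fasted overnight, with 1 list for each of the 3 factors in each feeding state. The 7th list is BCL6 in fed Bcl6 fl/fl mice on C57BL/6, which carry floxed Bcl6 alleles and no Cre and serve as controls for a knockout driven by albumin-Cre. No knockout peak list was analysed here. Each list was called over 3 pooled biological replicates, 21 of the 59 samples of the series, and gives only the position of each peak. The lists carry no replicate error and no depth, so that a region either holds a peak of a list or does not. The lists differed in size, from 15642 BCL6 peaks in fed to 9613 in fasted livers, from 21410 to 29085 for PPARα and from 7328 to 2399 for PPARδ, with 17454 in the Bcl6 fl/fl list. Of 5 hepatocyte marker genes all had a region, with a median of 9, from 3 at *Serpina1a*, none with BCL6, to 17 at *Apoa1*. Of 9 markers of B cells, Kupffer cells, endothelial and stellate cells, 4 had any (*Stab2* 14, *Pecam1* and *Reln* 4 each, *Pax5* 1). Among all protein-coding genes 49.9% had a region, so the markers of other cells were not shown to be set apart. In whole liver, fewer cells with a bound site and less binding per cell cannot be told apart.

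The pyruvate dehydrogenase complex turns pyruvate irreversibly into acetyl-CoA, and its kinases switch it off by phosphorylation. In the fasted liver this spares pyruvate for glucose synthesis while fatty acids are oxidized. PPARα is a nuclear receptor activated by fatty acids that drives much of this fasting program, PPARδ is a close relative that binds the same kind of element, and BCL6 is a zinc finger repressor best known from germinal centre B cells. PPARs bind DNA as dimers with RXR, at a direct repeat of the half-site AGGTCA with 1 base between the copies, called DR1.

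To show the bound DNA itself, the 200 bp around the centre of the region called in the most C57BL/6 lists is printed for each gene, read from the GRCm38 (mm10) reference on the + strand. For *Pdk4*, the regions with a DR1 match are added. These were chosen after the matches were seen. Capitals mark a match, on either strand, to any of 7 short elements. They were the DR1 (AGGTCA, any base, AGGTCA) with up to 2 mismatches, the BCL6 element TTCCTAGAA with up to 1, and exact TTGCNCAA (C/EBP), TGTTTAC (FOXA), ATTGAT (HNF6), CACGTG (E-box) and TTCCNNGAA (STAT-like, which overlaps the BCL6 element).
Pdk1, intron 1, chr2:71873894-71874093: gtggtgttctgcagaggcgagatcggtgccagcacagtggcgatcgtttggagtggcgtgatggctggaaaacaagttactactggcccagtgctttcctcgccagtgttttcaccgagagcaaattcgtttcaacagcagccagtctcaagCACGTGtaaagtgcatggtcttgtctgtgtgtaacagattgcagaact
Pdk2, intron 2, chr11:95038752-95038951: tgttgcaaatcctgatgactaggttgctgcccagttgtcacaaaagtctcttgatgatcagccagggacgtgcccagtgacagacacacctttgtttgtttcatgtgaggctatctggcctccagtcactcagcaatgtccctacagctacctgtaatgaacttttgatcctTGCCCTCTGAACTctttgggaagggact
Pdk4, 2717 bp upstream, chr6:5498896-5499095: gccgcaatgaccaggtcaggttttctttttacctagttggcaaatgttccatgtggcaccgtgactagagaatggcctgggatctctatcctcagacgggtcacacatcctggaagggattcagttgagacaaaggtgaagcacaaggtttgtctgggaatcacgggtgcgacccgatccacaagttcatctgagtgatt
Pdk4, 13624 bp upstream, chr6:5509802-5510001: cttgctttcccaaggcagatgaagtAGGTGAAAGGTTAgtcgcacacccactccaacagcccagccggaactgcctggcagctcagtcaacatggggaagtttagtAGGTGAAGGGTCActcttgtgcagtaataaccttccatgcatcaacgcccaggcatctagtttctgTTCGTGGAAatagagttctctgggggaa
Pdk4, 25114 bp downstream, chr6:5471065-5471264: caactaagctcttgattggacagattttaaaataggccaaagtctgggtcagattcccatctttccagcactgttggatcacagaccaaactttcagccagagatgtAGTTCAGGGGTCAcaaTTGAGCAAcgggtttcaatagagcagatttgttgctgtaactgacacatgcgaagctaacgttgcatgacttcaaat
Ucp2, intron 2, chr7:100494999-100495198: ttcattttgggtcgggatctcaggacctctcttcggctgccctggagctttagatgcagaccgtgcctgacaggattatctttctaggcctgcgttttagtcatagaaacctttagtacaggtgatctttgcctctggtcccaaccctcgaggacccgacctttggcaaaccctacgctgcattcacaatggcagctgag
Txnip, 6242 bp downstream, chr3:96564100-96564299: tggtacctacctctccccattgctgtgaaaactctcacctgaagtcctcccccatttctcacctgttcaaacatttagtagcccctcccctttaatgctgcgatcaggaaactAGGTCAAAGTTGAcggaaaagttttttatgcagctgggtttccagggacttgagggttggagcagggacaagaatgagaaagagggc
Idh2, 14062 bp upstream, chr7:80129313-80129512: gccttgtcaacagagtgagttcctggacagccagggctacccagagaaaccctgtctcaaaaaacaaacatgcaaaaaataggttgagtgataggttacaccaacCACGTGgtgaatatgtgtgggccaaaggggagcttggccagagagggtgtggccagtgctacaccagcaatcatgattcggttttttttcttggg
Vnn1, 9576 bp upstream, chr10:23885013-23885212: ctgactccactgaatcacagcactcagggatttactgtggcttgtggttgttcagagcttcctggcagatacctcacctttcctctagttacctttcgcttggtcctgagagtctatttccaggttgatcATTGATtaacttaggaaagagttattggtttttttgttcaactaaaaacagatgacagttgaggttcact

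A DR1 match lay in 6 of the 30 member regions (20.0%, exact 95% interval 7.71% to 38.6%), against 13.1% of all regions, so the members were not set apart by it. At *Pdk4* 13624 bp upstream there were 2 matches, the nearer 12 bp from the centre. In the region 25114 bp downstream of the *Pdk4* TSS the match AGTTCAGGGGTCA lay 14 bp from the centre and was followed by an exact C/EBP element. In the *Txnip* region 6242 bp downstream, AGGTCAAAGTTGA began with an intact half-site. The other matches were in the *Pdk2* intron 2 region, in a *Pdk1* intron 8 region and 16320 bp upstream of *Txnip*. With at most 1 mismatch none of the 30 regions kept a match, against 3.06% of all regions.

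The BCL6 element was in 0 of 30 windows (exact 95% interval up to 11.6%), against 10.8% of all regions, which the interval contained. None of the 18 member regions called for BCL6 carried it, against 15.2% of regions with a BCL6 call in the series. No interval was computed for these 18, so a difference from that share was not shown. E-boxes stood in 3 windows (10.0%, against 4.71% of all regions), at *Pdk1*, at *Idh2* 8 bp from the centre and at *Vnn1* 1518 bp upstream. FOXA elements stood in 3 (10.0%, against 7.46%), among them the promoter regions of *Pdk4* and *Txnip*. HNF6 elements were in 2 (6.67%, against 16.1%), and the C/EBP and STAT-like elements in 1 each (3.33%, against 7.34% and 6.84%). The exact 95% interval was 2.11% to 26.5% for E-boxes and 0.818% to 22.1% for HNF6 elements. For each element from the E-box on, the interval contained the share of all regions, so no difference was shown. A match describes letters in the window and does not show that a factor binds them.

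Every member gene had at least 1 BCL6 region in C57BL/6 livers (7 of 7), against 27.9% of the 21787 protein-coding genes. PPARα regions were found at 6 of 7 genes, the exception being *Ucp2*, against 45.5% of genes. PPARδ regions were found at 5 of 7, all but *Pdk1* and *Ucp2*, against 18.8%. *Pdk4* had 9 regions, a number reached by 3.49% of genes, *Idh2* 7 (5.94%) and *Txnip* 6 (7.95%). *Vnn1* had 3 (20.7%), *Pdk1* and *Pdk2* 2 each (30.6%) and *Ucp2* 1 (49.9%), where the median gene had 0 and the median gene with any region had 2. The members were named with earlier results of these data known, so these shares describe them and do not test them.

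**Figure D1:**
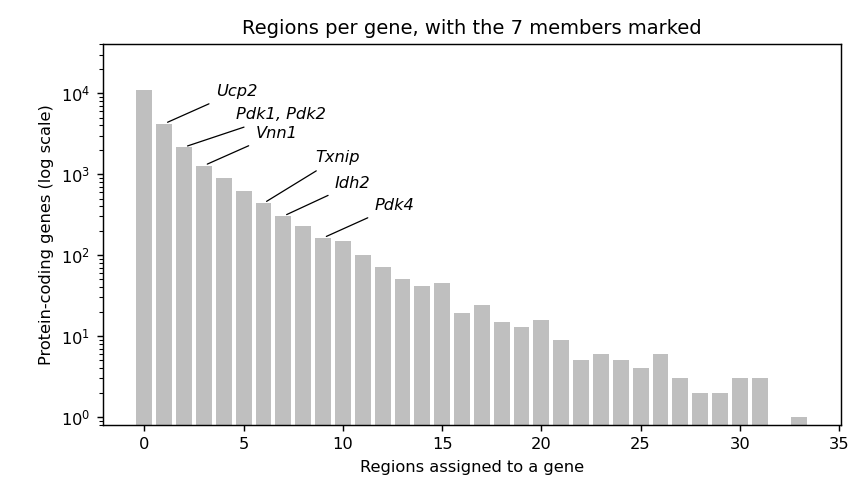
Number of protein-coding genes (log scale) by the number of regions assigned to each gene. *Pdk4* with 9, *Idh2* with 7 and *Txnip* with 6 regions lie in the thinning right part of the distribution, which ends at 33, and *Ucp2* with 1 lies in the largest class after 0.

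Of the 30 regions, 16 lay upstream and 14 downstream of their gene's TSS, at a median distance of 8.17 kb. Promoters, taken from 1000 bp upstream to 100 bp downstream of any protein-coding TSS, held 4 of them (13.3%, against 13.5% of all regions). Introns of the member genes held 7, an untranslated last exon 1, and 21 were intergenic. The remaining 1, at the *Idh2* start, lay inside a longer predicted transcript. The farthest region assigned to a member was 52.9 kb from its TSS, and the 100 kb limit cut off none.

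**Figure D2:**
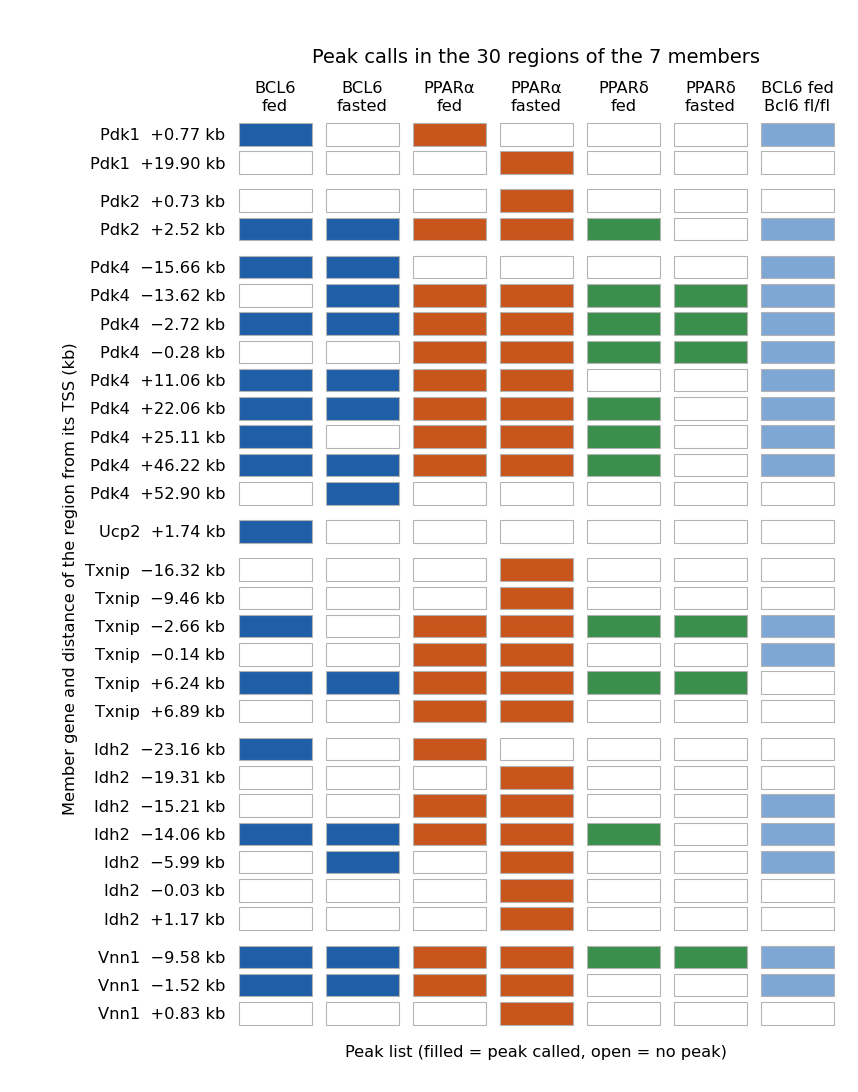
Calls in the 30 member regions (rows, by gene and distance from the TSS in kb) and the 7 peak lists (columns). A filled box is a called peak. Filled boxes run across all 6 C57BL/6 columns at 3 regions, 1 each of *Pdk4*, *Txnip* and *Vnn1*, and 10 regions have a filled box in only 1 of these columns.

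*Pdk4* encodes the kinase isoform most strongly induced by fasting and a classical PPARα target. It lies on chromosome 6 from 5483351 to 5496278 on the minus strand. Its regions held 6 BCL6 peaks in fed and 7 in fasted livers, 7 PPARα peaks in either state, and 6 PPARδ peaks in fed against 3 in fasted livers. With 8 peaks of the Bcl6 fl/fl list this made 44 of the 105 member peaks.

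The region 2717 bp upstream of the *Pdk4* TSS (chr6:5498845-5499142) was called in all 7 lists. At 13624 bp upstream, PPARα and PPARδ were called in both states, and BCL6 in fasted C57BL/6 and fed Bcl6 fl/fl livers but not in fed C57BL/6 livers. The *Pdk4* promoter region, 282 bp upstream, had PPARα and PPARδ in both states. It had no BCL6 peak in C57BL/6 livers of either state, while the Bcl6 fl/fl list had a BCL6 peak there, centred 124 bp from the nearest PPARα centre. These upstream sites therefore kept both PPAR calls through the fast.

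Downstream of the *Pdk4* TSS the picture for PPARδ differed. At 22060, 25114 and 46222 bp, PPARα was called in both states and PPARδ in fed livers only. BCL6 was called in both states at the first and last of these and in fed livers only at 25114 bp. The region 11060 bp downstream, in the untranslated part of the last exon (exon 11), had BCL6 and PPARα in both states and no PPARδ. At *Pdk4*, then, all 3 PPARδ regions upstream or at the promoter were called in both states and all 3 beyond the gene's end in fed livers only, a division seen after the calls were known and without a test.

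*Pdk4* also had 2 regions with BCL6 and neither PPAR. The region 15657 bp upstream was called for BCL6 in both states and in the Bcl6 fl/fl list. The region 52903 bp downstream was called for BCL6 in fasted livers only, the only call there in any list.

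**Figure D3:**
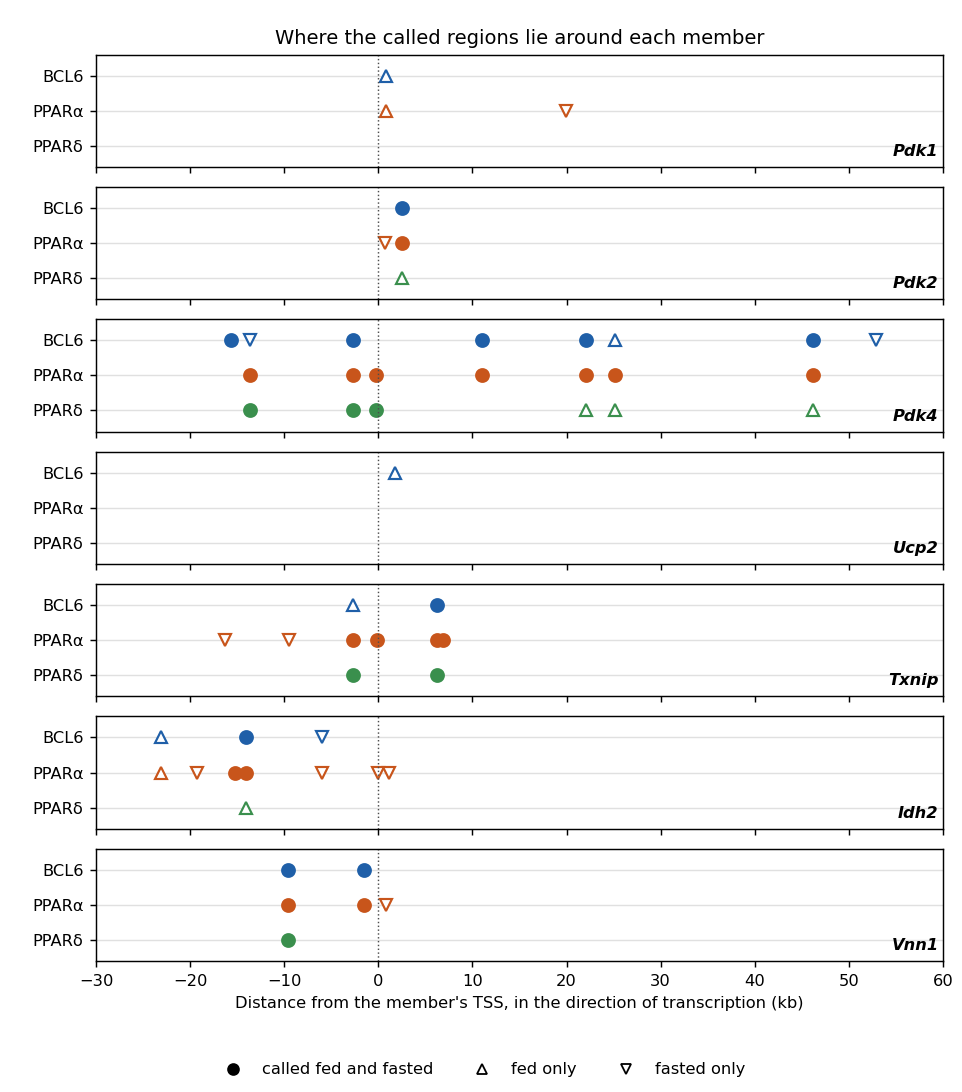
Distance of each region from the TSS of its gene (kb, positive in the direction of transcription), with a row for each factor in C57BL/6 livers. Filled circles are calls in both states, open upward triangles fed only, open downward triangles fasted only. At *Pdk4* the filled PPARδ circles lie at or upstream of the TSS and the open PPARδ triangles downstream.

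Other kinase genes were bound more sparsely. *Pdk2* encodes the kinase isoform widely present in liver and lies on chromosome 11 from 95026258 to 95041371. Its region in intron 2, 2520 bp downstream of the TSS (chr11:95038734-95038966), had BCL6 and PPARα in both states, PPARδ in fed livers only and BCL6 in Bcl6 fl/fl livers. A second region, 728 bp downstream in intron 1, was called for PPARα in fasted livers only.

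*Pdk1*, an isoform known as a target of the hypoxia response, lies on chromosome 2 from 71873215 to 71903858. Its intron 1 region, 769 bp downstream of the TSS (chr2:71873883-71874101), was called for BCL6 and PPARα in fed livers only and for BCL6 in Bcl6 fl/fl livers. It counts as a promoter because a predicted transcript starts 314 bp away. The other *Pdk1* region, 19896 bp downstream in intron 8, had PPARα in fasted livers only. So PPARα was called at *Pdk1* in both feeding states but never at the same place.

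*Ucp2* encodes an inner mitochondrial membrane carrier of the uncoupling protein family and lies on chromosome 7 from 100493337 to 100499629. It had 1 region, in intron 2 and 1740 bp downstream of the TSS (chr7:100494990-100495206). BCL6 was called there in fed C57BL/6 livers only, and the Bcl6 fl/fl list did not hold it. The neighbouring gene *Ucp3* had 3 regions, each with PPARδ in both states and none with BCL6.

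*Txnip* encodes a protein that binds thioredoxin and limits glucose uptake. It lies on chromosome 3 from 96557957 to 96561857. The region 6242 bp downstream of its TSS (chr3:96564056-96564339) was called in all 6 C57BL/6 lists and was absent from the Bcl6 fl/fl list, unlike the other regions called in all 6. A neighbouring region at 6888 bp had PPARα alone, in both states.

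Upstream of *Txnip*, the region at 2664 bp (chr3:96555063-96555517) had BCL6 only in fed livers, and PPARα in either state. PPARδ was called in both states there too, but its fed and fasted centres lay 208 bp apart and were joined only through the PPARα peak between them. In the other 5 member regions with PPARδ in both states these centres were at most 78 bp apart. The *Txnip* promoter region, 143 bp upstream, had PPARα in both states and BCL6 in the Bcl6 fl/fl list but in neither C57BL/6 list. Farther out, at 9457 and 16320 bp, only the fasted PPARα list had a peak.

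*Idh2* encodes the mitochondrial NADP-dependent isocitrate dehydrogenase and lies on chromosome 7 from 80094845 to 80118608 on the minus strand. Its most often called region, 14062 bp upstream (chr7:80129271-80129559), had BCL6 and PPARα in both states, PPARδ in fed livers only and BCL6 in Bcl6 fl/fl livers. This is also where the study placed a ChIP-qPCR amplicon. Its primers cagtgctacaccagcaatca and gctggcttgaatgtccaaatc matched chr7:80129471-80129553, an 83 bp product centred 100 bp from the middle of the region, within 200 bp of a peak centre of 6 lists, all but PPARδ in fasted livers.

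The other 6 *Idh2* regions had no PPARδ. At 15208 bp upstream PPARα was called in both states, with BCL6 in the Bcl6 fl/fl list only. At 23156 bp BCL6 and PPARα were both called in fed C57BL/6 livers only, and at 5992 bp both were called in fasted C57BL/6 livers only, although the Bcl6 fl/fl list also held a fed BCL6 peak there. The promoter region, 31 bp upstream of the TSS, the intron 1 region 1169 bp downstream and the region 19309 bp upstream had PPARα in fasted livers only. PPARα peaks at *Idh2* thus numbered 3 in fed and 6 in fasted livers, and BCL6 peaks 2 in each.

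*Vnn1* encodes the enzyme that frees pantothenate, the precursor of coenzyme A, from pantetheine, and is a known PPARα target in liver. It lies on chromosome 10 from 23894688 to 23905344. The region 9576 bp upstream (chr10:23884970-23885260) was called in all 7 lists. The region 1518 bp upstream had BCL6 and PPARα in both states and in Bcl6 fl/fl livers, without PPARδ. A region 832 bp downstream in intron 1 had PPARα in fasted livers only.

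The question the feeding contrast addresses is whether BCL6 and the PPARs change places at genes of the fasting program. Calls answer it only in part, since a region called in both states may still differ in how strongly it is bound. By tag density, the study reports that BCL6 binding fell and PPARα binding rose on fasting at sites shared by both. It names *Vnn1* among the genes that the factors occupy reciprocally. Binding strength could not be read from the lists used here. Over the 7 genes, BCL6 had 15 called regions in the fed state and 13 in the fasted state. Of the 18 BCL6 regions, 5 were called in fed livers only (27.8%, against 45.3% of all BCL6 regions), 10 in both states (55.6%, against 43.7%) and 3 in fasted livers only (16.7%, against 11.0%). The regions called in fed livers only were spread over *Pdk1*, *Pdk4*, *Ucp2*, *Txnip* and *Idh2*, 1 at each. Exact 95% intervals of the 3 member shares, 9.69% to 53.5%, 30.8% to 78.5% and 3.58% to 41.4%, all contained the share of the whole series.

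PPARα had 18 called member regions in the fed state and 25 in the fasted state. Of its 27 regions, 2 were called in fed livers only (7.41%, against 12.8% of all PPARα regions), 16 in both states (59.3%, against 51.3%) and 9 in fasted livers only (33.3%, against 35.8%). These shares were near those of the whole series. The 9 regions called in fasted livers only were 4 at *Idh2*, 2 at *Txnip* and 1 each at *Pdk1*, *Pdk2* and *Vnn1*. *Pdk4* had none, since all 7 of its PPARα regions were already called in fed livers.

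PPARδ was called at 11 member regions in fed livers and at 6 of the same regions in fasted livers. Thus 5 were called in fed livers only (45.5%, against 70.7% of all PPARδ regions), 6 in both states (54.5%, exact 95% interval 23.4% to 83.3%, against 18.7%) and 0 in fasted livers only (upper limit 28.5%, against 10.6%). The interval of the share called in both states lay above the series share. It rests on few regions, 3 of the 6 at *Pdk4*, 2 at *Txnip* and 1 at *Vnn1*. Without *Pdk4* it was 3 of 5 (exact 95% interval 14.7% to 94.7%, which contained the series share). With peaks joined under 100 bp, which splits the *Txnip* region 2664 bp upstream, it was 5 of 12 (41.7%, against 18.5% of all). No interval was computed for that share, so it was not shown to lie above the series share under this joining.

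BCL6 regions also had PPARα at 15 of 18 (83.3%, exact 95% interval 58.6% to 96.4%, against 77.6% of all BCL6 regions), and PPARα regions also had BCL6 at 15 of 27 (55.6%, 35.3% to 74.5%, against 40.9%). Both intervals contained the share of the series. All 11 PPARδ regions had PPARα (exact 95% interval from 71.5%), against 85.0% of PPARδ regions in the series. PPARα regions also had PPARδ at 11 of 27 (40.7%, exact 95% interval 22.4% to 61.2%, against 20.9%). Regions with all 3 factors numbered 10 of 30 (33.3%, 17.3% to 52.8%, against 11.5% of all regions). They were 5 at *Pdk4*, 2 at *Txnip* and 1 each at *Pdk2*, *Idh2* and *Vnn1*.

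The 3 regions called in all 6 C57BL/6 lists made up 10.0% of the members (2.11% to 26.5%) against 1.67% of all regions. The intervals count regions as independent, although those of a gene share a locus, and cover counting error only. With 1 TSS per gene, 2 more regions near *Txnip* were added to these 3, making 5. Without *Pdk4*, PPARα regions also had PPARδ at 5 of 20 (25%, 8.66% to 49.1%, against 20.9%), all 3 factors were found at 5 of 21 regions (23.8%, 8.22% to 47.2%) and all 6 lists at 2 of 21 (9.52%, 1.17% to 30.4%). Each of these intervals contained the share of the series.

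**Figure D4:**
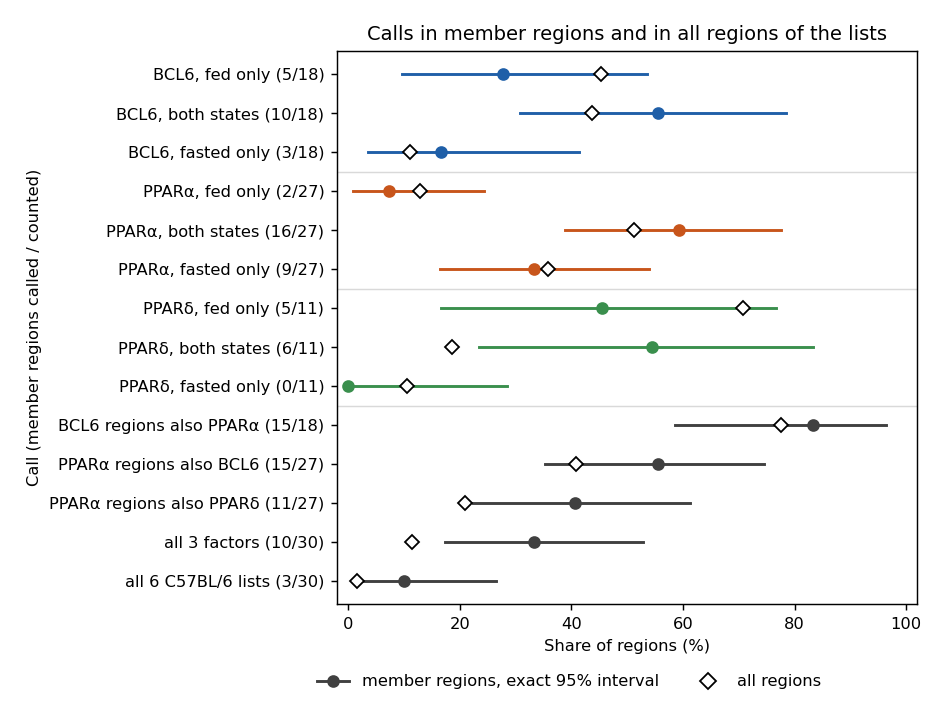
Share of member regions with each call (filled circles, with exact 95% intervals) and the share among all regions of the lists (open diamonds), in percent. The diamonds lie inside the intervals for every BCL6 and PPARα feeding class, and below them for PPARδ in both states, PPARα with PPARδ, all 3 factors and all 6 lists, which held only with *Pdk4* included. For PPARδ in both states, no interval was computed with peaks joined under 100 bp.

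PPARα regions without a BCL6 call numbered 12, and 8 of them were called in fasted livers only (66.7%, exact 95% interval 34.9% to 90.1%, against 52.6%). Where BCL6 was also called, PPARα was fasted-only at 1 of 15 regions (6.67%, against 11.7% of such regions in the series), 5992 bp upstream of *Idh2*, where BCL6 in C57BL/6 livers was called in the fasted state too. Both member shares were near those of the series. A BCL6 call in fed livers only with a PPARα call in fasted livers only was found at 0 of the 5 member regions with fed-only BCL6 (upper limit 52.2%), against 10.0% in the series, so that so few regions could not show a difference from it. At these 5 regions PPARα was called in both states at 2, in fed livers only at 2 and in neither at 1. Of the 8 fasted-only PPARα regions without BCL6, 1 was in a promoter (12.5%), against 26.6% of such regions in the series.

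In the 15 regions with BCL6 and PPARα, the nearest centres of the factors lay 0 to 38 bp apart, with a median of 8 bp, all under 50 bp. In the 13640 such regions of the series the median was 14 bp and 86.4% were under 50 bp. Each gap is the smallest over fed and fasted peaks, so regions called in both states had more pairs to choose from. The difference in spacing was not tested. The widest gaps were 38 bp at *Txnip* 2664 bp upstream and 36 bp at *Vnn1* 9576 bp upstream. At *Pdk4*, centres coincided at 13624 bp upstream and 11060 bp downstream.

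**Figure D5:**
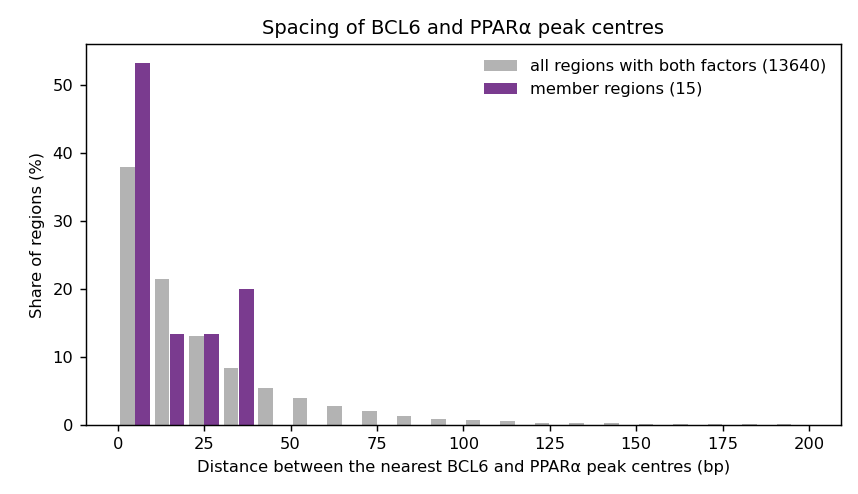
Distance between the nearest BCL6 and PPARα peak centres (bp) in bins of 10 bp, as a share of regions with both factors. Member regions (15) all lie under 40 bp, with 53.3% under 10 bp, against 38.0% of all such regions, a difference that was not tested.

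The fed BCL6 calls could be set beside the second fed list, from Bcl6 fl/fl livers. Of the 15 member regions called for BCL6 in fed C57BL/6 livers, 12 were also called there (80.0%, against 69.5% of all fed C57BL/6 BCL6 regions). The 3 missing were *Ucp2* intron 2, *Txnip* 6242 bp downstream and *Idh2* 23156 bp upstream. Conversely, 3 of the 17 Bcl6 fl/fl regions had no C57BL/6 BCL6 call in either state (17.6%, against 32.2%), the promoters of *Pdk4* and *Txnip* and the region 15208 bp upstream of *Idh2*. Another 2, 13624 bp upstream of *Pdk4* and 5992 bp upstream of *Idh2*, were called in Bcl6 fl/fl fed livers and, in C57BL/6, in fasted livers only. At these regions the change of BCL6 with feeding in C57BL/6 livers was therefore not borne out by the other fed list.

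For the pathway around the members, 20 further genes were read. They were the subunits of the pyruvate dehydrogenase complex, *Pdk3* and the phosphatases that undo the kinases' work, the mitochondrial pyruvate carrier, enzymes of other pyruvate fates, and relatives of the members. Of these, 18 had a region, 14 had BCL6, 17 PPARα and 10 PPARδ. Among all protein-coding genes 49.9% had a region, 27.9% BCL6, 45.5% PPARα and 18.8% PPARδ. The median was 3 regions a gene, the same as for the members. Summed over the 20 genes, regions called from fed to fasted livers went from 37 to 29 for BCL6, from 59 to 73 for PPARα and from 27 to 6 for PPARδ. The whole lists moved the same way, from 15642 to 9613, from 21410 to 29085 and from 7328 to 2399 peaks.

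The share of all protein-coding genes holding a region with all 3 factors was not counted. Such regions, 11.5% of all regions in the series, were found at 8 of the 20 genes. Within the complex this was *Dlat*, its acetyltransferase, with 1. The phosphatase genes *Pdp1* and *Pdp2* had 2 and 1. *Mpc1*, a subunit of the pyruvate carrier, had 3 among its 10 regions. *Pcx*, pyruvate carboxylase, had 3 among 19, and *Ldha*, lactate dehydrogenase, 4 among 9. *Arrdc4*, a relative of *Txnip*, and *Idh1*, the cytosolic partner of *Idh2*, had 2 each. The complex subunits *Pdha1* and *Dld* had PPARα without BCL6, and *Pdk3* and *Idh3g* had no region.

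By the number of peaks in each of the 6 C57BL/6 lists, the gene most like *Pdk4* was *Fbxo15*, whose counts differed from it by 2 in sum, followed by *Gm826* and *Hsd17b2* with 4 each. *Pdk4* had 6, 7, 7, 7, 6 and 3 peaks in the fed and fasted lists of BCL6, PPARα and PPARδ, and *Fbxo15* 7, 7, 7, 7, 6 and 2. This likeness is over 6 pooled lists.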

How the data were processed

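Chromatin of mouse livers was immunoprecipitated for BCL6, PPARα or PPARδ and sequenced. With Bowtie the authors placed the reads on mm10, keeping uniquely placed reads and at most 1 read per position, pooled the 3 replicates of a group, and called peaks with HOMER against input. The authors then filtered these peaks with DESeq2 on the tags of the separate libraries. The deposited lists hold the place of each peak (chromosome, start, end), at a fixed width of 192 to 222 bp a list, with no tag count, score or p-value. Depth is therefore unknown, no test between feeding states could be made, and a region called in a single state may have missed the threshold narrowly in the other. Whether starts count from 0 or 1 is not given in the sources used here, which can shift a centre by 1 bp at most.

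Centres less than 200 bp apart, in all 7 lists, were chained into regions with pandas 2.3.3 and NumPy 2.4.6 (Python 3.11.15). Regions were assigned to genes with the 84748 protein-coding RefSeq transcripts of GRCm38, the assembly of mm10, and all list ends lay within its 21 chromosomes. Distances refer to the most upstream curated transcript of a gene. Sequences were read with pysam 0.24.0, and intervals are exact binomial ones (SciPy 1.17.1). Joining, assignment and the search for elements were tested on simulated data.

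The 7 genes, the 20 pathway genes, the marker genes and the elements were chosen with earlier results of these data known. All 7 genes are named, with every region. Shown sequences are those called in most lists, ties going to the nearest to the TSS, and the genes most like *Pdk4* are the 3 with the smallest summed difference in peak counts. Alternatives covered the joining distance, the reach and choice of TSS, the in-gene clause, the lists joined, the BCL6 list, the window and the mismatches. Those on *Pdk4*, on calls in both states or in all 6 lists and on a window of 25 kb were added after seeing the data. The other 38 samples of the series gave no peak list read here, although they include the input libraries that peaks were called against.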

Additional observations from a re-analysis of the deposited data

How the results depend on the processing

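All 76 values of the 9 counts over the members under the other joining and assignment rules and lists stayed within 1.5 times the reported count, and 61 of them equalled it. Reading 1 TSS per gene gave the largest change in regions, from 30 to 35, by moving 3 regions from *Polr3gl* to *Txnip* and 2 from *Zfp710* to *Idh2*. With it, PPARδ regions in fasted livers went from 6 to 9, at the limit of 1.5 times. The same rule moved the count of regions called in all 6 lists from 3 to 5, while 8 other rules, added after seeing the data, gave 2 or 3. Counts without *Pdk4*, an alternative added after seeing the data, moved further. BCL6 regions fell to 9 in fed and 6 in fasted livers, PPARα regions in fed livers to 11, and PPARδ regions to 5 and 3. Regions with BCL6 and PPARα came to 9, those with all 3 factors to 5, and those called in both states to 5 for BCL6, 9 for PPARα and 3 for PPARδ. *Pdk4* held 9 of the 30 regions, which is how these counts fell.

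DR1 matches went from 6 regions to 4 in a window of 100 bp and to 0 with 1 mismatch fewer, and the STAT-like match was lost in the window of 100 bp. No paired analysis was possible because each list pools its 3 replicates, and for the same reason no replicate could be left out. Unknown depth limits every comparison of list sizes between feeding states.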

Other observations

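Within 25 kb of a member's TSS lay 6 regions assigned to other genes. Near *Txnip* there were 4, assigned to *Polr3gl*, and those 16112 and 17771 bp downstream of the *Txnip* TSS were each called in all 6 C57BL/6 lists and in Bcl6 fl/fl livers. With the region 6242 bp downstream, this makes 3 regions called in all 6 lists within 25 kb of the *Txnip* TSS. Near *Ucp2*, a region 18432 bp upstream, assigned to *Ucp3*, had PPARδ in both states and PPARα in fasted livers only. Near *Pdk2*, a region 17735 bp downstream, assigned to *Samd14*, had PPARα in fasted livers only. This window was added after seeing the data, and which gene these regions act on was not tested.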
